A study of Mus musculus with 8 samples.

Results

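The 10 genes Cdkn1a, Cdkn1b, Cdkn1c, Cdkn2c, Cdkn2d, Mdm2, Ccng1, Phlda3, Bbc3 and Sesn2 were examined in CCSP-p52 and WT lungs with and without LPS. The first 5 encode inhibitors of cyclin-dependent kinases (CDKs), and the other 5 are targets of the transcription factor p53. They were picked by name, with earlier results of these data known, among 18820 genes that had a probe set with a single gene symbol. Each gene was read from the probe set with the highest mean over the 8 arrays, and 11 of the 21218 probe sets with 1 symbol belong to these 10 genes, since Cdkn1b has a second.

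CDK inhibitors hold cells in the G1 phase of the cell cycle. The CIP/KIP proteins p21 (Cdkn1a), p27 (Cdkn1b) and p57 (Cdkn1c) bind cyclin-CDK complexes, while the INK4 proteins p18 (Cdkn2c) and p19 (Cdkn2d) bind the kinases CDK4 and CDK6. p53 is stabilized after DNA damage and other stress and binds pairs of half-sites in DNA, switching on genes for cell cycle arrest such as Cdkn1a, for cell death such as Bbc3 and for its own removal such as Mdm2. In lung, p21 is known as a gene that responds to injury, oxidants and cytokines as well as to p53.

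RNA of whole lungs from FVB mice aged 8 to 12 weeks was read on 8 Affymetrix arrays, 2 per group. CCSP-p52 mice carry CCSP-tTS/(tet-O)7-FLAG-p52 and CCSP-rtTA, and express FLAG-tagged p52, an NF-kB subunit, in the airway epithelium while doxycycline (dox) is given. The transgenic mice came from separate founder lines, and WT mice were littermates negative for the transgenes by genotyping. The groups were CCSP-p52 mice on dox 48 hours after intratracheal LPS (CCSP-p52 LPS), WT mice treated in the same way (WT LPS), CCSP-p52 mice on dox alone (CCSP-p52 dox) and WT mice on dox alone (WT dox). All groups, WT included, drank dox at 2 g/L with 2% sucrose for 1 week. LPS, from the outer membrane of bacteria, draws inflammatory cells into the lung. Each array held pooled RNA of 3 mice, both sexes being evenly mixed in a group, so that errors are those between 2 pools and not between mice. The transgene is on in CCSP-positive cells of the airway, whereas the arrays read all cells of the lung.

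The values are log2 expression after the authors' normalization, which gave the 8 arrays medians of 7.48 to 7.54. The 2 pools of a group correlated over all probe sets at 0.981 (CCSP-p52 LPS), 0.985 (WT LPS), 0.996 (CCSP-p52 dox) and 0.996 (WT dox). WT LPS pool 2 stood apart. Its 5 markers of squamous epithelium summed to 13383 on the linear scale, against 419 to 489 on the other 7 arrays, and its 5 markers of skeletal muscle summed to 8987, against at most 1676 elsewhere. CCSP-p52 LPS pool 2 also stood apart from the other arrays with LPS. Its 5 macrophage and monocyte markers summed to 5503 (9381 to 11868 on the others), its 5 endothelial markers to 25183 (15827 to 19498) and its 13 glucocorticoid and fasting targets to 45462 (35087 to 36945). Values without these pools are given where they move a result named below. Nfkb2, which encodes p100 and p52, was read as a check of the labels, and it separated the genotypes only without LPS. Its log2 value was 10.20 and 10.33 in CCSP-p52 dox lungs and 9.51 and 9.58 in WT dox lungs (logFC 0.72, SE 0.23). After LPS it was 11.28 and 10.53 in CCSP-p52 lungs and 10.83 and 10.56 in WT lungs, where the groups overlapped (logFC 0.21, SE 0.23). There CCSP-p52 LPS pool 2 lay below both WT LPS pools, so that Nfkb2 does not check the labels of the arrays with LPS. The sources used here do not say which part of Nfkb2 the probes read.

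The promoter sequences of the genes that the results turn on are shown first, because p53, and NF-kB through the transgene, act by binding DNA. The RefSeq table of promoters (GRCm38.p6, 250 bases before to 50 after each annotated start) held 13 windows for 9 of the 10 genes, and Cdkn1c had none. Capitals mark a p53 half-site, a TATA box (TATAAA or TATAAG), a GC box (GGGCGG) or a CCAAT box (CCAAT) on either strand, and the sequence reads 5′ to 3′ on the strand of the gene. The first window of Cdkn1a (chr17:29090729-29091028, plus strand) precedes the outermost start, and the second (chr17:29093519-29093818, plus strand) precedes a start 2790 bases further on, within the gene. Those of Mdm2 (chr10:117710709-117711008, minus strand) and Ccng1 (chr11:40755237-40755536, minus strand) are shown for their half-sites, and those of Cdkn1b (chr6:134920151-134920450, plus strand) and Cdkn2c (chr4:109666707-109667006, minus strand) for the fall of these genes after LPS.
Cdkn1a outer start: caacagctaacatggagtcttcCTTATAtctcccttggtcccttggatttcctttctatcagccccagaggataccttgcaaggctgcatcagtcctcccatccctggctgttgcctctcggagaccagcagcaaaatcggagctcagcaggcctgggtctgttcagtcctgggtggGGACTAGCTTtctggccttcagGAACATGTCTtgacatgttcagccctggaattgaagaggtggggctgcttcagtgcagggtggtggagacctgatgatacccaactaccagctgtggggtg
Cdkn1a inner start: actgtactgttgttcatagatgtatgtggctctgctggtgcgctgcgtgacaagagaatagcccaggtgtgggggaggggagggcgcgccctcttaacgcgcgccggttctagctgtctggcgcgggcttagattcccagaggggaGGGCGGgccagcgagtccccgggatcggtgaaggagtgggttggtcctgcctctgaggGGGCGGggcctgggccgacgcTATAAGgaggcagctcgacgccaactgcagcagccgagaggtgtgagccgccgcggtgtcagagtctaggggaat
Mdm2: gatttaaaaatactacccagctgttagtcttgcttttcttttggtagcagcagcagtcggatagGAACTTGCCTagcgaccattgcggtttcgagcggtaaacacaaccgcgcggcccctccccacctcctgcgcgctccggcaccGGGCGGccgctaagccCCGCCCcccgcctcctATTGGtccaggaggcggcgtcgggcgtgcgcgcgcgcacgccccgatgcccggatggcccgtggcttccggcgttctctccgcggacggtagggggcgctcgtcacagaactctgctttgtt
Ccng1: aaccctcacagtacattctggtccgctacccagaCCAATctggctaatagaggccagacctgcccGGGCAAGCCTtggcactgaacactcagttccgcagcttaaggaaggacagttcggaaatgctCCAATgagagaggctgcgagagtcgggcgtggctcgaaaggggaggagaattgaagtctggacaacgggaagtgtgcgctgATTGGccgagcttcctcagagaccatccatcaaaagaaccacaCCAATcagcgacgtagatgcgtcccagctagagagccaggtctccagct
Cdkn1b: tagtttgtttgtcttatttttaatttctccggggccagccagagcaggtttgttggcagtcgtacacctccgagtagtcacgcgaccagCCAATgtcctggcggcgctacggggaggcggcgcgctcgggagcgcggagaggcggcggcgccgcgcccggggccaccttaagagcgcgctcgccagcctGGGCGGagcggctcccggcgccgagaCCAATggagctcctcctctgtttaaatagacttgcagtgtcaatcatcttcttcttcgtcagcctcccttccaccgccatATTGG
Cdkn2c: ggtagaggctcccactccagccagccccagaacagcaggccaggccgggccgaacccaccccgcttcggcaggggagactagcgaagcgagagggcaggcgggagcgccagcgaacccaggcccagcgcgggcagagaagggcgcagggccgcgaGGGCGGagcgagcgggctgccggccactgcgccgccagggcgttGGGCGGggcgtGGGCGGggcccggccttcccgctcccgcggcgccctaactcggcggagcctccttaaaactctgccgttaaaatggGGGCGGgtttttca

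A p53 half-site matched at all 10 positions occurred in 4 of the 13 windows, those of Cdkn1a, Cdkn2d, Mdm2 and Ccng1, against 8.36% of all 32851 windows in the table. The outer window of Cdkn1a held GGACTAGCTT at 73 bases and GAACATGTCT at 51 bases before the start, 12 bases apart. The second of them is followed directly by TGACATGTTC, which fits the half-site at 9 of 10 positions. In Ccng1 the half-site GGGCAAGCCT, 185 bases before the start, directly follows AGACCTGCCC, which fits at 9 of 10. The half-sites of Mdm2 (GAACTTGCCT, 186 bases before the start) and Cdkn2d (GGGCTTGCCT, 102 bases before the start) had no second one fitting at 9 or more positions within 13 bases. A half-site with such a partner occurred in 1.09% of all windows. The p53 sites of Mdm2 are known to lie in its first intron, outside this window.

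An NF-kB motif occurred in the windows of Cdkn2d and Bbc3, 2 of 13, against 8.46% of all windows, and in neither window of Cdkn1a. A TATA box occurred in both Cdkn1a windows and in no other of the 13 (18.8% of all windows). GC boxes occurred in 10 of 13 windows (35.7% of all) and CCAAT boxes in 7 of 13 (37.4% of all). Matches to E2F (TTTGGCGC or TTTCCCGC), STAT (TTCNNNGAA) and AP-1 (TGANTCA) motifs occurred in none of the 13, against 1.56%, 8.3% and 7.81% of all windows. The E-box CACGTG was present in 2 of 13 windows, those of Cdkn2c at its inner start and of Bbc3, against 7.15% of all. The motifs were searched on both strands, and in Cdkn2d GC boxes overlap the half-site and the NF-kB motif. These matches describe letters in the windows only.

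At an adjusted p under 0.05, 4 of the 10 genes differed with LPS. All 4 were CDK inhibitors, of which Cdkn1a is a p53 target as well. Cdkn1a was 2.78-fold higher in lungs with LPS than in lungs without, and Cdkn1b, Cdkn1c and Cdkn2c were lower. Of the other 5 p53 targets none passed, and 1 of them, Mdm2, had an unadjusted p under 0.05, as did 9250 of all 21218 probe sets. The split between Cdkn1b (logFC -0.33, adjusted p = 0.017 from limma) and Mdm2 (0.33, adjusted p = 0.051) rests on the threshold. With the mean of each gene's probe sets Mdm2 passed and Cdkn1b did not. The test was limma on all 8 arrays with terms for p52 and for LPS, and a gene passed where its p, adjusted by Benjamini-Hochberg across the 21218 probe sets, was under 0.05. The count of 1 higher and 3 lower stands against a background of 13.5% of probe sets higher and 20.2% lower, so that 1 of 10 and 3 of 10 are shares near those of all probe sets. The median LPS logFC of the 10 genes was 0.06, and that of all probe sets 0.01. In whole lung RNA, fewer cells of a type and less RNA per cell cannot be told apart.

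**Figure D1:**
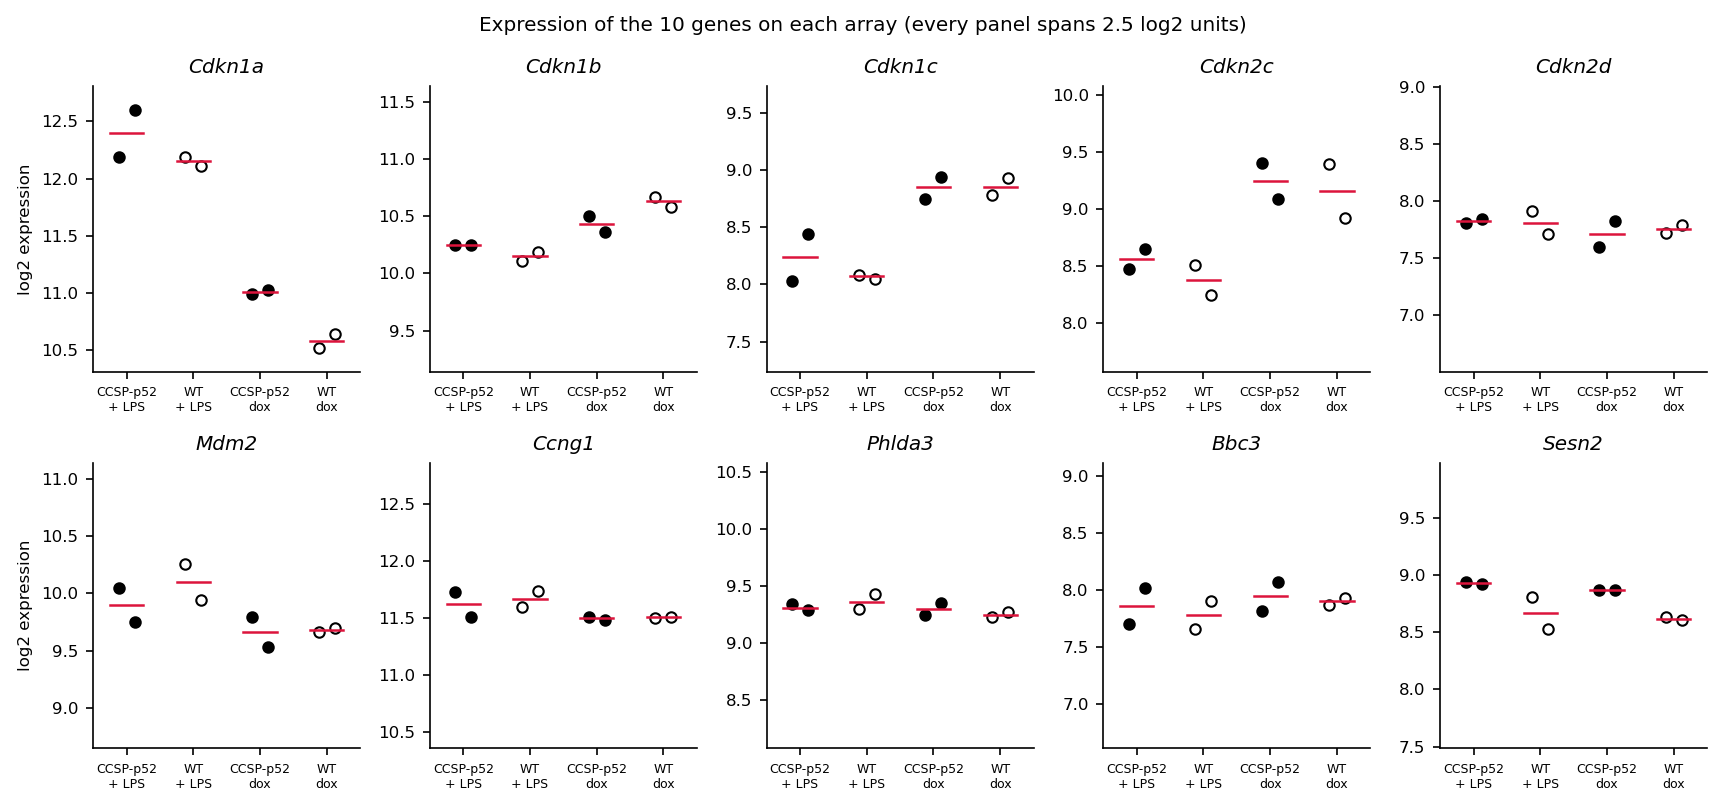
Log2 expression of the 10 genes (vertical axis) on each of the 8 arrays, by group (horizontal axis). Filled points are CCSP-p52 pools, open points are WT pools, and red bars are group means of 2 pools. Every panel spans 2.5 log2 units. Cdkn1a is higher on all 4 arrays with LPS than on the 4 without, and Cdkn1b, Cdkn1c and Cdkn2c are lower on all 4. Such separation held for 15.3% of all probe sets in the higher direction and 21.2% in the lower.

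Cdkn1a, the gene of p21 (chr17:29090979-29100722, GRCm38.p6), had log2 values of 12.19 and 12.60 in CCSP-p52 LPS lungs, 12.19 and 12.11 in WT LPS lungs, 10.99 and 11.03 in CCSP-p52 dox lungs and 10.52 and 10.64 in WT dox lungs. All 4 arrays with LPS lay above all 4 without, as for 15.3% of all probe sets. The LPS logFC was 1.48 (SE 0.10, adjusted p = 1.0e-04). It was 1.39 (SE 0.14, adjusted p = 0.0055) in CCSP-p52 lungs and 1.57 (SE 0.14, adjusted p = 0.003) in WT lungs, and the difference between these effects was -0.18 (95% interval -0.66 to 0.30). When each array was left out in turn, the LPS logFC of Cdkn1a stayed between 1.41 and 1.58.

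The other CIP/KIP genes went the other way. Cdkn1c, the gene of p57 and an imprinted inhibitor of growth, was 8.03 and 8.44 in CCSP-p52 LPS lungs, 8.08 and 8.05 in WT LPS lungs, 8.75 and 8.94 in CCSP-p52 dox lungs and 8.78 and 8.93 in WT dox lungs. Every array with LPS was below every array without, as for 21.2% of all probe sets. The LPS logFC was -0.70 (SE 0.11, adjusted p = 0.0021), a 1.62-fold lower level, and -0.80 to -0.63 with 1 array left out. CCSP-p52 LPS pool 2, at 8.44, lay highest of the 4 arrays with LPS, and without it the logFC was -0.80.

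Cdkn1b, the gene of p27 (chr6:134920401-134925525), was 10.25 and 10.25 in CCSP-p52 LPS lungs, 10.11 and 10.19 in WT LPS lungs, 10.50 and 10.36 in CCSP-p52 dox lungs and 10.67 and 10.58 in WT dox lungs. The arrays with LPS lay below those without, as for 21.2% of all probe sets, and the logFC was small, at -0.33 (SE 0.08, adjusted p = 0.017). Its second and dimmer probe set, with a mean log2 value of 7.55, gave -0.17 (SE 0.24, adjusted p = 0.61), so that the probe sets differ in the call. The fall did not pass without the first WT dox pool (-0.28), without the second (-0.32) or without the first WT LPS pool (-0.29), nor with the mean of both probe sets (-0.25, adjusted p = 0.22).

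Of the INK4 genes, 1 of the 2 was lower with LPS. Cdkn2c, the gene of p18 (chr4:109660876-109666756), was 8.47 and 8.65 in CCSP-p52 LPS lungs, 8.51 and 8.25 in WT LPS lungs, 9.40 and 9.09 in CCSP-p52 dox lungs and 9.39 and 8.92 in WT dox lungs. The arrays with LPS lay below those without, although the 2 WT dox pools had an SD of 0.33. Its LPS logFC was -0.73 (SE 0.13, adjusted p = 0.0036), a 1.66-fold lower level, and -0.82 to -0.63 with 1 array left out. Non-overlap in this direction held for 21.2% of all probe sets. Cdkn2d, the gene of p19, ranged over the 8 arrays only between 7.60 and 7.91, with an LPS logFC of 0.09 (SE 0.08, adjusted p = 0.45).

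Within each genotype, these 4 CDK inhibitors had the same directions. In CCSP-p52 lungs Cdkn1a alone passed, 1 higher and 0 lower (background 4.31% and 5.17% of probe sets), where Cdkn1c was at -0.61 (SE 0.15, adjusted p = 0.054), Cdkn2c at -0.68 (SE 0.19, adjusted p = 0.07) and Cdkn1b at -0.18 (SE 0.10, adjusted p = 0.26). In WT lungs 1 was higher and 3 lower (background 7.98% and 13.7%), with Cdkn1c at -0.79 (adjusted p = 0.017), Cdkn2c at -0.78 (adjusted p = 0.032) and Cdkn1b at -0.48 (adjusted p = 0.018). These counts depend on single arrays. In WT lungs only Cdkn1a passed when any single WT pool was left out. In CCSP-p52 lungs the count was 0 when either pool on dox alone was left out, and 2 without the second LPS pool. With the pool number as a block, Cdkn1c and Cdkn2c joined Cdkn1a in CCSP-p52 lungs, making 3, and Mdm2 joined the 4 in WT lungs, making 5. No difference between the LPS effects of the genotypes passed for any of the 10 genes (0 of 10, limma). At an unadjusted p under 0.05 (limma) the count was 0, against 1069 of all 21218 probe sets.

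**Figure D2:**
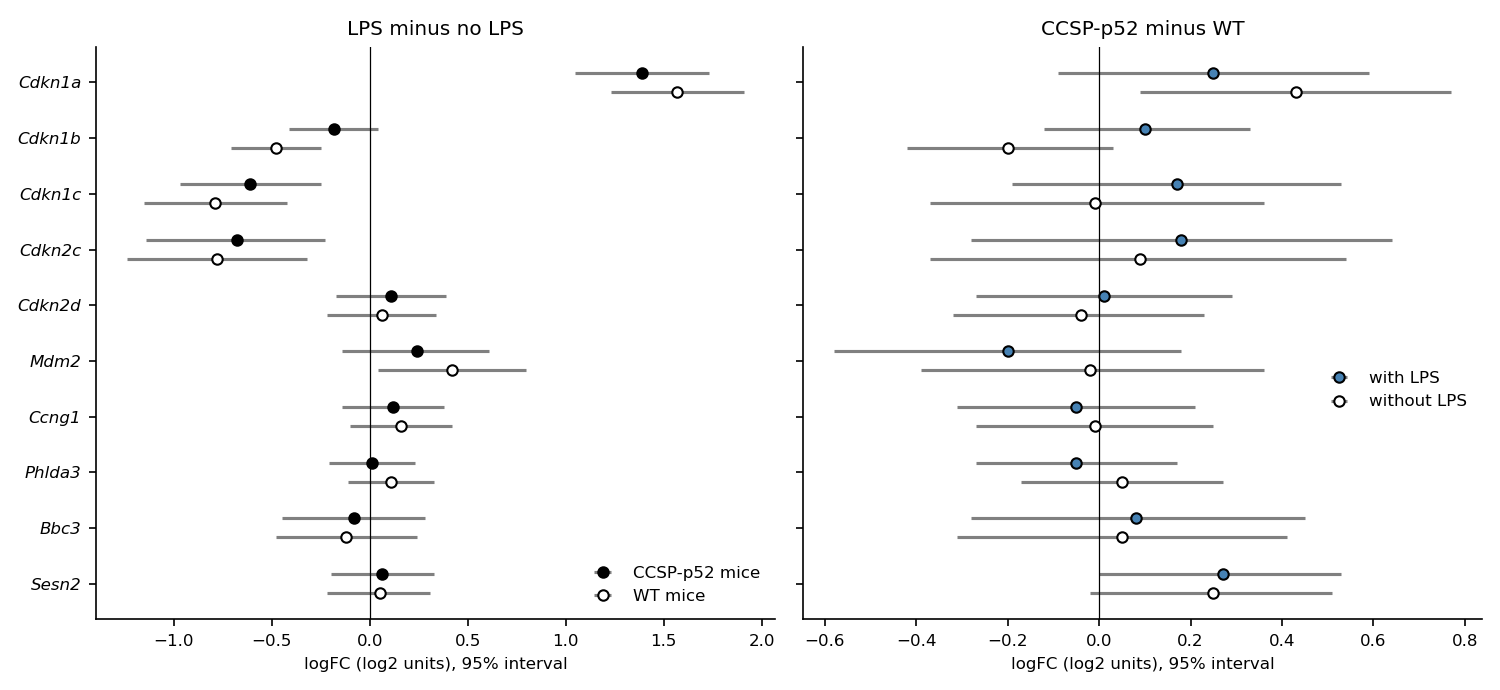
Differences in log2 expression (horizontal axis, logFC) for each of the 10 genes (vertical axis), with 95% intervals from limma on 2 pools per group. The left panel shows LPS minus no LPS in CCSP-p52 mice (filled) and WT mice (open), and the right panel CCSP-p52 minus WT with LPS (blue) and without LPS (open). Only Cdkn1a lies far above 0 for LPS (1.39 and 1.57), and only Cdkn1a without LPS has a p52 effect at the cut-off of 0.41 (0.43).

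None of the 5 p53 targets other than Cdkn1a passed for LPS, although Mdm2 lay at the threshold. Mdm2, which encodes the ubiquitin ligase that degrades p53 (chr10:117688875-117710758), was 10.05 and 9.75 in CCSP-p52 LPS lungs, 10.26 and 9.94 in WT LPS lungs, 9.79 and 9.53 in CCSP-p52 dox lungs and 9.66 and 9.70 in WT dox lungs. The CCSP-p52 LPS pool at 9.75 lay below the CCSP-p52 dox pool at 9.79. The LPS logFC was 0.33 (SE 0.11), which missed the threshold at an adjusted p of 0.051. With all 35556 probe sets tested it did not pass either (adjusted p = 0.076 from limma), and it was 0.25 without the first WT LPS pool. With the pool number as a block it passed (0.33, adjusted p = 0.02). It passed too with an intensity trend and robust priors (adjusted p = 0.048), array weights (0.024), renewed quantile normalization (0.03), only probe sets above the median (0.038) and the mean of each gene's probe sets (0.05 when rounded). It also passed without the first CCSP-p52 dox pool (0.40), when the second CCSP-p52 LPS pool was left out (0.41) and without both second LPS pools (0.48).

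Ccng1, encoding cyclin G1, a partner of a phosphatase that acts on Mdm2, lay between 11.48 and 11.74 on all arrays (LPS logFC 0.14, SE 0.07, adjusted p = 0.18). Phlda3, whose product holds back AKT at the membrane, lay between 9.23 and 9.43 (0.06, SE 0.07, adjusted p = 0.53). Bbc3, encoding the BH3-only death protein PUMA, lay between 7.66 and 8.07 (-0.10, SE 0.10, adjusted p = 0.49). In these 3 genes the arrays with and without LPS overlapped. Sesn2, encoding sestrin 2, an inhibitor of mTORC1 signalling under stress, had an LPS logFC of 0.05 (SE 0.08, adjusted p = 0.62). The 95% intervals of the LPS effect reached at most 0.31 for Ccng1, 0.21 for Phlda3 and 0.23 for Sesn2.

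Other p53 targets were mixed as well. Of 38 listed, 34 were measured (Bax, Ddb2, Fdxr and Gdf15 were not analysed here), and after LPS 10 were higher, 11 were lower and 13 did not pass, with a median logFC of -0.11. Over all probe sets 13.5% were higher and 20.2% lower, which is the background for this list and those that follow. Fas, the death receptor, was higher (0.92, SE 0.12), as was the kinase Plk3 (0.77, SE 0.10). Steap3, a metalloreductase, was lower (-0.63, SE 0.09), as was Xpc, which recognizes DNA lesions (-0.60, SE 0.09). The number lower depended on single arrays. It fell without the second WT dox pool, the first pool of either dox group or the first WT LPS pool. It rose without the second CCSP-p52 LPS pool, and the number higher moved less.

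Among 15 measured regulators of p53 (Rchy1 and Trp53 itself were not analysed here), 2 were higher and 5 lower, with a median of -0.06. Daxx, a partner of Mdm2 and chromatin chaperone, was higher (1.08). Trp53bp2, encoding the p53-binding protein ASPP2, was lower (-1.07), as were the damage mediator Trp53bp1 (-0.41) and the kinase Hipk2 (-0.51). The count higher was 1 when any WT pool or the first CCSP-p52 LPS pool was left out, and 4 without the second CCSP-p52 LPS pool. Of the relatives of these genes, Sesn3 (-0.53) and Ccng2 (-0.36) were lower, 2 of 5 (1 of 5 without any single dox or WT LPS pool), and Sesn1 was at -0.57 (adjusted p = 0.06).

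Of the kinases and cyclins that the inhibitors act on and the other INK4 genes, 11 were measured in all (Ccnb1 and Ccne2 were not analysed here), and 3 were higher with LPS: Cdk1 (1.48, SE 0.20), Ccna2 (1.47, SE 0.23) and Ccne1 (1.04, SE 0.14). Cdk6, the kinase that p18 and p19 bind, was lower by a small amount (-0.24, SE 0.08), as was Ccnd2 (-0.27). Of these 2, 1 passed without the first WT LPS pool or the first CCSP-p52 LPS pool, and 0 without any other array. The other INK4 genes Cdkn2a (-0.02) and Cdkn2b (-0.15) and the kinases Cdk4 (0.00) and Cdk2 (-0.01) did not pass. Proliferation markers rose with LPS in 12 of 13, with a median of 1.07, on the same arrays on which Cdkn1a rose and Cdkn1b, Cdkn1c and Cdkn2c fell.

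**Figure D3:**
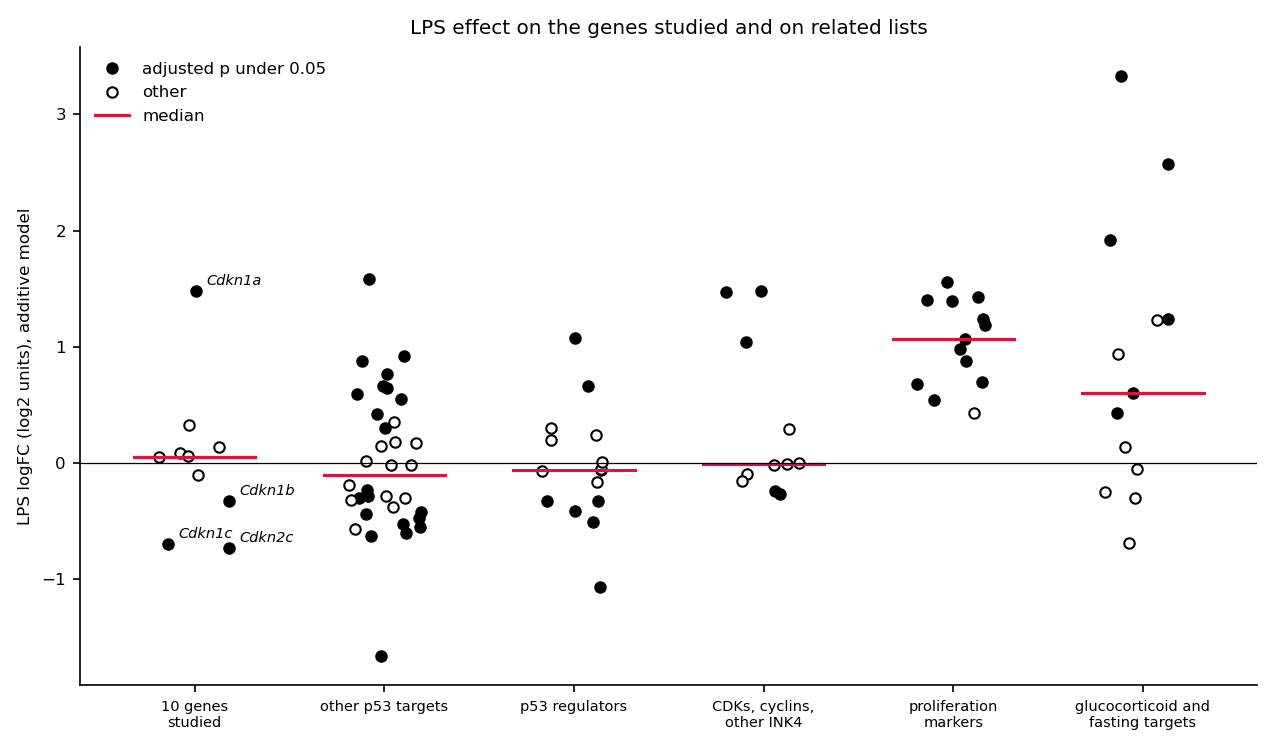
LPS logFC in log2 units (vertical axis, additive model over 8 arrays) of each gene, by list (horizontal axis). Filled points passed at an adjusted p under 0.05, open points did not, and red bars are list medians. The 10 genes and the other p53 targets scatter on both sides of 0 (medians 0.06 and -0.11), while 12 of 13 proliferation markers are filled and above 0 (median 1.07).

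Markers of cell types moved on the same arrays, in which numbers of cells and RNA per cell cannot be told apart. All 5 neutrophil markers rose with LPS (median logFC 3.75), and their summed linear level was 10744 to 14221 in CCSP-p52 LPS lungs and 11073 to 15731 in WT LPS lungs, against 923 to 1001 in CCSP-p52 dox lungs and 857 to 1315 in WT dox lungs. All 5 measured macrophage and monocyte markers rose (median 2.60). Endothelial markers fell in 4 of 5 (median -0.54). Their sum was 15827 to 25183 in CCSP-p52 LPS lungs and 17995 to 19498 in WT LPS lungs, against 29604 to 30582 in CCSP-p52 dox lungs and 30769 to 31765 in WT dox lungs. Alveolar type I markers fell in 4 of 5 (median -0.75), and markers of club cells, in which the transgene is expressed, in 3 of 4 (median -1.11). The part of these shifts in the results for Cdkn1a, Cdkn1b, Cdkn1c and Cdkn2c was not tested.

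Targets of glucocorticoids and fasting rose in 6 of 13 (median 0.60). They were led by the metallothioneins Mt2 (3.33) and Mt1 (2.57), Fkbp5, a chaperone of the glucocorticoid receptor (1.92), and Angptl4, an inhibitor of lipoprotein lipase (1.24). The remaining 7 did not pass. Among them Klf9 was at -0.69 (adjusted p = 0.058 from limma), Dusp1 at -0.30, Tsc22d3 at -0.25 and Per1 at -0.05. The others were positive, with Pdk4 at 1.23 (adjusted p = 0.061 from limma), Zbtb16 at 0.94 and Errfi1 at 0.14. The logFC was positive in 9 of the 13. The part of such a response in the Cdkn1a result was not tested.

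For p52 in the airway, none of the 10 genes passed adjustment across all probe sets, and Cdkn1a and Sesn2 had the smallest unadjusted p. Cdkn1a, which the study lists among its p52-associated genes, was 1.35-fold higher in CCSP-p52 than in WT lungs without LPS. It was the only member at the cut-off used here. That cut-off takes its size of logFC, 0.41, from the study, which considered positive changes only, and applies it in both directions together with an unadjusted p no higher than 0.05 (limma). At that cut-off were 0.556% of all probe sets in the higher direction and 0.160% in the lower, against 1 and 0 of the 10 genes. With LPS no member was at the cut-off (background 1.09% in each direction), nor in the model over all 8 arrays (background 0.245% higher and 0.0424% lower). At an adjusted p under 0.05 the count was 0 in all 3 comparisons (limma; background 0% without LPS, 0% with LPS and 0.00471% over all arrays). Members with an unadjusted p under 0.05 (limma) numbered 1 of 10 without LPS, 1 with LPS and 2 over all arrays. Of all 21218 probe sets, 361, 1480 and 481 had such a p in these 3 comparisons. The comparisons without and with LPS share no arrays in their means, but both take their spread from 1 fit to all 8 arrays. Both also enter the one over all arrays. The median p52 logFC over all arrays was 0.03 for the 10 genes and 0.00 for all probe sets.

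Without LPS, Cdkn1a was 10.99 and 11.03 in CCSP-p52 lungs and 10.52 and 10.64 in WT lungs, and the pools did not overlap, as for 16.1% of probe sets in this direction. The logFC was 0.43 (SE 0.14, 95% interval 0.09 to 0.77, unadjusted p = 0.02 and adjusted p = 1.00 from limma). It left the cut-off without the first WT dox pool (0.37), the first CCSP-p52 dox pool (0.45) or the second (0.41), and at an unadjusted p of at most 0.01. With LPS the logFC was 0.25 (SE 0.14, adjusted p = 0.74). The second CCSP-p52 LPS pool, at 12.60, stood above the first, at 12.19, and above both WT LPS pools, at 12.19 and 12.11. It is the pool with the low macrophage and high endothelial and glucocorticoid sums, whose part in the result was not tested. Without the first CCSP-p52 LPS pool the logFC was 0.45 with LPS and 0.44 over all arrays, both at the cut-off, and without the second it was 0.05 with LPS. Over all 8 arrays it was 0.34 (SE 0.10, unadjusted p = 0.0091). The order of the 4 groups for Cdkn1a was CCSP-p52 LPS, WT LPS, CCSP-p52 dox and WT dox, in which the difference of 0.25 between the LPS groups was smaller than the SD of the CCSP-p52 LPS pools (0.29).

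Sesn2 (chr4:132492804-132510456) was the only member in which all 4 CCSP-p52 arrays lay above all 4 WT arrays, which held for 0.570% of all probe sets. Its log2 values were 8.94 and 8.92 in CCSP-p52 LPS lungs, 8.81 and 8.53 in WT LPS lungs, 8.87 and 8.87 in CCSP-p52 dox lungs and 8.63 and 8.61 in WT dox lungs. The difference was small, a logFC of 0.26 (SE 0.08, 95% interval 0.08 to 0.43) over all arrays, under the 0.41 of the cut-off, with an unadjusted p of 0.0093 and an adjusted p of 1.00 (limma). It was 0.25 (SE 0.11) without LPS and 0.27 (SE 0.11) with LPS. The value with LPS moved with single WT pools, being 0.12 without WT LPS pool 2, the pool with squamous and muscle markers, and 0.41 without WT LPS pool 1. Over all arrays it was 0.20 without WT LPS pool 2 and 0.31 without WT LPS pool 1. Among its relatives Phlda2, an imprinted gene related to Phlda3, was at the cut-off in both states, at 0.48 without LPS and 0.69 with LPS. Its log2 values were 8.09 and 8.32 in CCSP-p52 LPS lungs, 7.45 and 7.58 in WT LPS lungs, 8.25 and 8.20 in CCSP-p52 dox lungs and 7.76 and 7.73 in WT dox lungs.

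The other 8 genes had p52 effects over all arrays between -0.11 (Mdm2, SE 0.11) and 0.13 (Cdkn2c, SE 0.13). In Cdkn1b the effects without and with LPS had opposite signs. Both CCSP-p52 dox pools lay below both WT dox pools (10.50 and 10.36 against 10.67 and 10.58, logFC -0.20, SE 0.10), and both CCSP-p52 LPS pools lay above both WT LPS pools (10.25 and 10.25 against 10.11 and 10.19, logFC 0.10, SE 0.10). The difference between the effects was 0.30 (SE 0.13, 95% interval -0.02 to 0.62, adjusted p = 0.91 from limma), and such opposite separation occurred in 6.90% of all probe sets. No difference of p52 effects passed for any of the 10 genes (background 0%).

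Of the related lists, proliferation markers had the most genes at the cut-off for p52 without LPS, 8 of 13 (median 0.53), and none with LPS (median -0.09). The background was 0.556% of all probe sets higher and 0.160% lower without LPS, and 1.09% in each direction with LPS. Of the kinases and cyclins, Ccna2 (0.86) and Cdk1 (0.61) were at the cut-off without LPS. Of 34 other p53 targets 2 were, Ckap2 (0.73) and Psrc1 (0.46), and both encode proteins of the mitotic spindle. Their list had a median of 0.00. Chek1, encoding the checkpoint kinase CHK1, was at 0.57. These lists were chosen with results of the same arrays known and are given as description. Markers of club cells, which express the transgene, had a median p52 logFC of -0.07 without LPS and 0.19 with LPS, and 0 of 4 were at the cut-off. Mt2 (0.56) and Angptl4 (0.66) of the glucocorticoid and fasting list were at the cut-off without LPS, with a list median of 0.36, on the arrays on which Cdkn1a was at 0.43. The part of that list in the Cdkn1a difference was not tested.

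The 3 members that varied most over the 8 arrays were Cdkn1a (SD 0.82), Cdkn2c (SD 0.43) and Cdkn1c (SD 0.40). Among 18820 genes, those whose centred log2 values lay closest to Cdkn1a over the 8 arrays were Myc (root mean square difference 0.16), Slc7a5 (0.16), Clca3a1 (0.17), Sema7a (0.18) and Serpina3n (0.18). Closest to Cdkn2c were Slit2 (0.07), Il17d (0.09), Colec12 (0.10), Pxmp4 (0.10) and Pcdhb16 (0.10). Closest to Cdkn1c were Chd3 (0.05), Arhgap23 (0.05), Atxn1 (0.05), Nck2 (0.06) and Kat6b (0.06). All values of a pair of genes come from the same 8 arrays, and most of the variation they share is that between arrays with and without LPS.

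**Figure D4:**
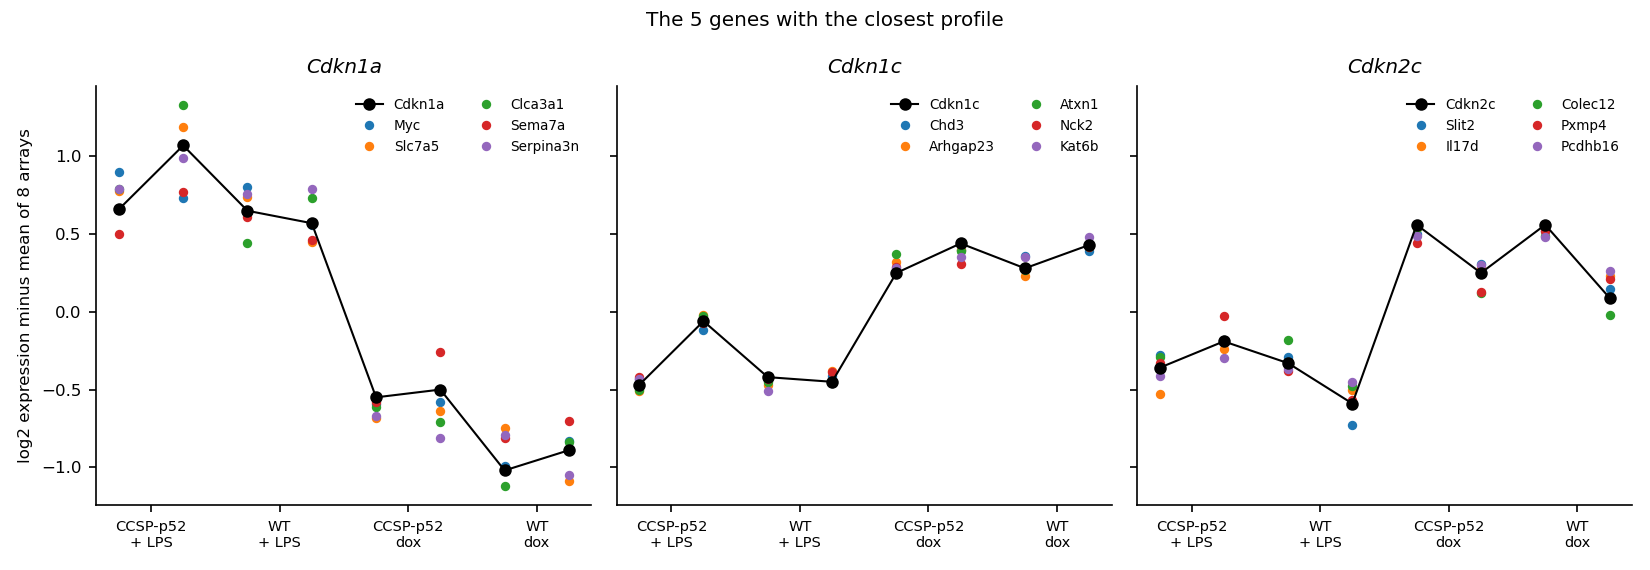
Log2 expression minus the mean of 8 arrays (vertical axis) on each array by group (horizontal axis, pool 1 left of pool 2), for Cdkn1a, Cdkn1c and Cdkn2c (black, joined) and the 5 genes closest to each (coloured). In Cdkn1a the arrays with LPS are high and CCSP-p52 LPS pool 2 is highest, while in Cdkn1c and Cdkn2c the arrays with LPS are low.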

How the data were processed

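Whole lung RNA was hybridized to 8 arrays (2 pools per group, 3 mice per pool), labelled Affymetrix Mouse Gene 1.0 ST. The authors made the deposited log2 values by the Robust Multichip Average (RMA), which corrects background, gives all arrays 1 distribution and summarizes probe sets, and the submitters' processing notes name limma 3.20.8. A common distribution hides any change in total RNA. The scanner files were not used here, and the number of arrays limits the precision (median SE of a logFC 0.0946 in the additive model and 0.129 in the 4-group model). Gene names came from a platform table, and whether it is of the same array version was not settled. Of 35556 probe sets 21218 (59.7%) had 1 symbol and were tested, 1881 had several and 12457 none. For 1386 genes with more than 1 probe set, the one with the highest mean was taken.

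Values were compared with limma 3.58.1 (R 4.3.3) by lmFit and eBayes, in an additive model with p52 and LPS as terms and in a 4-group model. The study's linear model took both factors into account, and whether it held an interaction is not stated. The study gives Cdkn1a a logFC close to the 0.43 found here without LPS, not to the 0.34 of the additive model. For Nfkb2 its value is close to the 0.72 found here without LPS, not to the 0.47 of the additive model. Effects of p52 were counted at a logFC of at least 0.41 (the study's size, used here in both directions) with an unadjusted p of at most 0.05 and, as those of LPS, at a p under 0.05 after Benjamini-Hochberg adjustment across the tested probe sets. The steps were tested on simulated data. The p-values measure the spread between pools. Pools with the same number deviated together from the means of their groups (r = 0.14 to 0.35 in the 6 pairs of groups), and the pool number was on that basis treated as a pairing, although no source says what such pools share. The result with the pool number as a block is given where it changed a call.

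The members, the lists and the rules were chosen with earlier results of these data known. Named genes were all members, at most 4 per list by the smallest p, those past the threshold first, the 5 genes closest to each of the 3 most variable members, and Nfkb2. Ccnd2, Cdk2, Cdk4, Cdkn2a, Cdkn2b, Klf9, Dusp1, Per1, Tsc22d3, Pdk4, Zbtb16, Errfi1 and Chek1 were named after their values were seen. Promoter sequences are from RefSeq (GRCm38.p6). Other rows tested, probe set means, moderation, array weights, quantile normalization, a filter on dim probe sets, the pool number as a block, other thresholds and each array left out were tried as alternatives. Alternatives for the lists were added after seeing the data.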

Additional observations from a re-analysis of the deposited data

Results flagged for a closer look

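The p52 effect on Cdkn1b had opposite directions without and with LPS, and no pool of 1 genotype overlapped the other in either state. The effect with LPS minus the effect without LPS was 0.30 on the log2 scale (SE 0.13, adjusted p = 0.91 from limma), and opposite separation of this kind occurred in 6.90% of all probe sets. In the second probe set of Cdkn1b the same difference was 0.85 (SE 0.40, adjusted p = 0.91 from limma). There the genotypes overlapped with LPS, at 7.48 and 7.96 in CCSP-p52 lungs and 6.82 and 7.60 in WT lungs.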

How the results depend on the processing

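For LPS over all arrays the count of members past the threshold was 4, with 3 to 5 under all alternatives run, and Cdkn1a passed in each of them. The count for LPS in CCSP-p52 lungs was 1, with 2 when only probe sets above the median of all values were tested, 3 with the pool number as a replicate block and 3 without both second LPS pools. For p52 without LPS it was 1, with 0 at an unadjusted p of at most 0.01. With 1 array left out in turn, the counts ranged over 0 to 2 for LPS in CCSP-p52 lungs, 1 to 4 for LPS in WT lungs, 0 to 1 for p52 without LPS, 0 to 1 for p52 with LPS and 0 to 1 for p52 over all arrays, and stayed at 0 for the difference of the p52 effects. For LPS in WT lungs the count was 4, and 5 with the pool number as a block. Among the members, the block changed no call other than those of Mdm2, Cdkn1c and Cdkn2c.

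Small p52 effects changed sign. Over all arrays, Cdkn1b was at 0.02 with the mean of its probe sets, Cdkn1c at -0.05, Mdm2 at 0.04, Ccng1 at 0.01 and Bbc3 at -0.04 with array weights, Phlda3 at -0.01 with renewed quantile normalization, and Cdkn1c at -0.02 and Ccng1 at 0.04 without both second LPS pools. Without LPS, Cdkn1c and Ccng1 were both at 0.01 with renewed quantile normalization. With LPS and without both second LPS pools, Cdkn1c was at -0.05, Cdkn2c at -0.04, Cdkn2d at -0.11, Ccng1 at 0.13 and Phlda3 at 0.04. With 1 array left out, effects over all arrays ranged over -0.09 to 0.01 (Cdkn1b), -0.02 to 0.15 (Cdkn1c), -0.06 to 0.03 (Cdkn2d), -0.07 to 0.02 (Ccng1), -0.03 to 0.04 (Phlda3) and -0.00 to 0.13 (Bbc3). Without LPS they ranged over -0.11 to 0.09 (Cdkn1c), -0.15 to 0.32 (Cdkn2c), -0.16 to 0.07 (Cdkn2d), -0.15 to 0.11 (Mdm2), -0.03 to 0.00 (Ccng1) and -0.08 to 0.18 (Bbc3). With LPS they ranged over -0.04 to 0.38 (Cdkn1c), -0.09 to 0.11 (Cdkn2d), -0.16 to 0.06 (Ccng1), -0.11 to 0.02 (Phlda3) and -0.08 to 0.24 (Bbc3). The cause was not tested. None of these effects had passed a threshold. With 1 pool left, a group is assumed to vary like the others. The number of arrays limits the precision.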
